A study of Mus musculus with 6 samples.

Results

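Very short introns that are kept in some annotated transcripts and spliced out in others were followed in hippocampus of 3 WT and 3 Prmt9 KO mice. A retained-intron event was an exon of one annotated transcript (GENCODE M21, GRCm38) that spans exactly 2 adjacent exons of another transcript of the same gene together with the intron between them. Of 3959 such events, 854 have an intron of at most 100 bases, which are 837 distinct introns in 686 genes. The other 3105 events, with introns above 100 bases, served for contrast. Retention was measured as PSI, the TPM of the retaining transcripts divided by the TPM of retaining plus spliced transcripts, which runs from 0 (always spliced) to 1 (always retained). The WT and KO mice were B6J females 2 weeks old, each KO a whole-body Prmt9 deletion made with CMV-Cre on a floxed Prmt9 exon, with same-sex littermates as controls. PRMT9 is an arginine methyltransferase that modifies the splicing factor SF3B2, and the comparison asks how retention of these introns differs when the enzyme is lost. Polyadenylated RNA of each mouse was read as 1 stranded library, and kallisto assigned the reads to annotated transcripts, so that PSI rests on transcript models and not on counted junction reads.

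In the spliceosome, the U1 particle pairs with the start of the intron, U2AF binds the pyrimidine-rich stretch before its end, and the U2 particle, with the SF3A and SF3B proteins, settles on the branch site. When an intron is very short, these sites and the proteins on them lie close together, and such introns are often recognised across the intron and not across the exon. A retained intron in the coding region usually brings a stop codon or shifts the reading frame, which can keep the transcript in the nucleus or send it to nonsense-mediated decay, but an intron without a stop and with a length that keeps the frame can add amino acids to the protein.

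The introns of Ufsp2 and Fbf1, genes for which the study lists PCR primer pairs, are shown first, followed by introns with the smallest unadjusted p in the KO comparison and by the intron of Hnrnpk from the list of RNA processing genes. Each is the strand of the transcript, 5′ to 3′ (GRCm38). Capitals mark the first 2 and last 2 bases and, where present, the match to CTNAC (N is any base; transcript strand only) nearest the end within the last 50 bases, a loose form of the branch-site motif.

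Ufsp2, chr8:45980493-45980572, plus strand: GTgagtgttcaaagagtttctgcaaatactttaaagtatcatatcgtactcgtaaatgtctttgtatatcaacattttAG
Fbf1, chr11:116148044-116148120, minus strand: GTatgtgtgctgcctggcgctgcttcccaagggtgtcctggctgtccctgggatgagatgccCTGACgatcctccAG
Pus3, chr9:35565198-35565289, plus strand: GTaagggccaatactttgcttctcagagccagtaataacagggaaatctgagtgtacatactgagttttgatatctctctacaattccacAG
Cuta, chr17:26938650-26938726, minus strand: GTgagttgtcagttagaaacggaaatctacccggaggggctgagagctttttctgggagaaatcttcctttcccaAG
Kat5, chr19:5603553-5603633, minus strand: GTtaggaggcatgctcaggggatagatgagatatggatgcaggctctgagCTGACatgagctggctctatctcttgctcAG
Capn3, chr2:120502445-120502528, plus strand: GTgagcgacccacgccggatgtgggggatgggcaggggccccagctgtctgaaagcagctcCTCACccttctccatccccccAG
Fxr1, chr3:34058082-34058168, plus strand: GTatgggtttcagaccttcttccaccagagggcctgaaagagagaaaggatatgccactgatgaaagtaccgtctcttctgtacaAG
Hook2, chr8:84995767-84995838, plus strand: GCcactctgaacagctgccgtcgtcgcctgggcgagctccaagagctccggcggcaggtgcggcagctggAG
Hnrnpk, chr13:58393775-58393852, minus strand: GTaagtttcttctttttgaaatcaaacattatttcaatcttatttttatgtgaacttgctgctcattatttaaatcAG

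The Ufsp2 intron is intron 3 of 11 of a coding transcript, lies in the coding region and is 30.0% G or C. Of the 779 distinct short introns with at least 50 bases, 2.31% have a lower GC share. No CTNAC lies in its last 50 bases. The Fbf1 intron, number 21 of 29 and also in the coding region, is 62.3% G or C and has CTGAC with its A 12 bases from the intron's end. Capn3, Fxr1 and Hook2 show introns that keep the reading frame without a stop. The Hook2 intron begins with GC.

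As a group, the short introns of at least 50 bases ended like the long retained introns but were richer in G and C. The median length of all 837 short introns was 82 bases, against 389 for the long introns. Among the 779 with at least 50 bases, 97.2% began with GT and ended with AG, against 96.6% of 3080 long introns, and 1.41% against 2.21% were GC-AG. The median GC share was 57.7% in short and 50.4% in long introns, and the median number of GGG per 100 bases was 2.99 and 1.89. The median share of pyrimidines in the last 20 bases before the AG was 75% in both. CTNAC lay in the last 50 bases of 32.6% of short and 26.0% of long introns, with its A at a median of 20 and 21 bases from the end. These shares describe the annotation and were not tested. The annotation also holds 58 gaps under 50 bases, of which 39 are at most 5 bases long and 8 have GT and AG ends; these entries stay among the members because the rule has no lower limit.

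Of the 702 short introns in coding regions, 59.1% held an in-frame stop, against 89.4% of 2454 long ones. Without a stop and with a length that keeps the frame were 95 short (13.5%) and 126 long introns (5.13%). The retaining transcripts were all of the annotated class retained intron for 62.1% of short and 69.2% of long introns, and all protein coding for 17.3% and 16.8%. Most genes (566 of 685 with a distinct intron assigned to them) had a single short intron of this kind, and the most in a gene was 8, in Cpsf1, which encodes the largest subunit of the cleavage and polyadenylation factor.

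Summed over all transcripts, the libraries held 194098391 to 286771677 estimated counts. Prmt9 was at 11.8, 15.2 and 15 TPM in WT and at 3.93, 4.61 and 4.67 TPM in KO mice, with no overlap, and its log2 fold change was -1.71 (edgeR quasi-likelihood test, Benjamini-Hochberg adjusted p = 0.0326 over 20278 genes; exact permutation test p = 0.1, the smallest that 3 mice against 3 can give). All 6 markers of hippocampal excitatory neurons were at 1 TPM or more in every mouse. Both mice numbered 1 stood apart: the summed TPM of 4 oligodendrocyte markers was 1824 in WT 1 and 944 in KO 1, against 7446 to 10795 in the other 4 mice, and in bulk tissue fewer cells of a type cannot be told apart from less RNA per cell. The summed TPM of 4 choroid plexus markers was 7249 in WT 1 and 607 to 3327 in the others. Most of the sum in WT 1 was Ttr, at 7157 TPM. Ttr and Folr1 were highest in WT 1. Kl and Clic6 were highest in KO 3, at 15.5 and 11.7 TPM, against 7.44 and 10.7 TPM in WT 1. In WT 1, 37.4% of transcripts were at 0, against 22.8% to 24.8% in the others. None of the defining oligodendrocyte or choroid plexus markers was at 0 in any mouse.

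Of the 854 short events, 699 had at least 1 TPM of retaining plus spliced transcripts in every mouse. Among them, 173 (24.7%) had a mean PSI under 0.05 over the 6 mice, 370 (52.9%) a mean PSI of 0.05 to 0.5 and 156 (22.3%) a mean PSI of at least 0.5. The 464 events in 387 genes with a mean PSI between 0.05 and 0.95 were compared between genotypes, beside 1662 long events. The median PSI of these short events was 0.188, 0.224 and 0.227 in WT mice and 0.211, 0.214 and 0.234 in KO mice. WT 1 was the lowest mouse, and the genotypes overlapped. As means over mice, the medians were 0.213 ± 0.022 in WT and 0.219 ± 0.013 in KO (SD, n = 3). The long events had medians of 0.189, 0.248 and 0.248 in WT and 0.211, 0.242 and 0.252 in KO mice, so that both mice numbered 1 lay below the other 4 there.

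**Figure D1:**
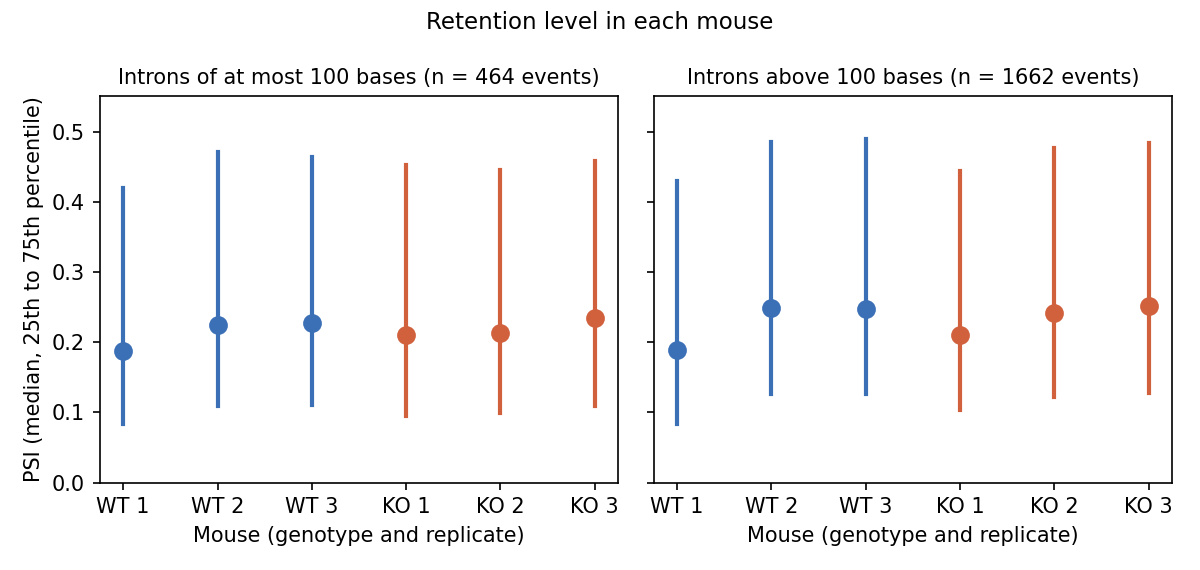
Median PSI (points) and its 25th to 75th percentile (lines) over the events compared, for each WT (blue) and KO (orange) mouse; left, 464 short events, right, 1662 long events. The short events' medians run from 0.188 in WT 1 to 0.234 in KO 3, and WT 1 is the lowest mouse in both panels.

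At the level of single events, WT 1 had the lowest PSI of the 6 mice in 213 of 464 short events (45.9%) and in 902 of 1662 long events (54.3%). Both mice numbered 1 lay below the other 4 in 142 short events (30.6%) and 794 long events (47.8%), and above them in 62 short and 147 long events. Both mice numbered 1 also had the low oligodendrocyte markers, but the order between them was reversed. KO 1 had the lower marker sum, yet it had the lowest PSI in 17.2% of short and 21.4% of long events. WT 1 had the fewest estimated counts (194098391) and the most transcripts at 0 (37.4%). The part of these traits in the lower PSI values was not tested. The median SD of PSI between mice of a genotype was 0.038 in WT and 0.023 in KO over the short events.

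Within the limit of 100 bases the level of retention varied with length. The 58 annotated gaps under 50 bases had 27 with enough TPM, and their median WT PSI was 0.990. It was 0.542 over 36 events with introns of 50 to 69 bases, 0.114 over 226 events of 70 to 79 bases, 0.119 over 242 events of 80 to 89 bases and 0.196 over 168 events of 90 to 100 bases. The KO medians of these classes were 0.996, 0.549, 0.125, 0.116 and 0.197. Over the limit, the WT median of 657 events with introns up to 200 bases was 0.190. Just inside the limit, at 91 to 100 bases, the median was 0.180 in WT and 0.188 in KO (151 events), and just outside it, up to 110 bases, 0.184 and 0.184 (123 events).

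**Figure D2:**
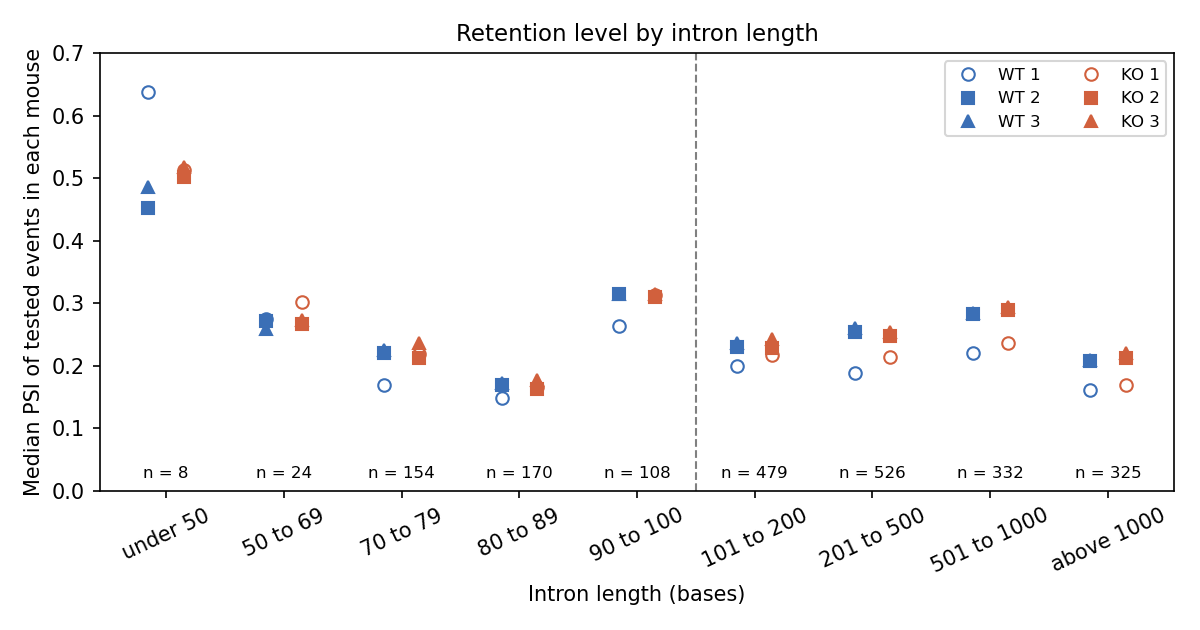
Median PSI of the events compared in each mouse (symbols, WT blue and KO orange, mice numbered 1 open) by class of intron length in bases; n is the number of events and the dashed line marks the limit of 100 bases. Medians are lowest at 80 to 89 bases, from 0.148 in WT 1 to 0.177 in KO 3, and highest under 50 bases, where only 8 events had a mean PSI between 0.05 and 0.95.

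Over all events with enough TPM, retention was lower where it broke the reading frame. The 529 short events in coding regions whose retention brings a stop or shifts the frame had a median WT PSI of 0.103. It was 0.337 for 77 events that keep the frame and 0.547 for the other 93 events. In 22 and 15 of these 93 the intron lies in the 3′ or 5′ UTR of the spliced transcripts. In 56 the spliced transcripts have no annotated coding region, so the intron may still lie in coding sequence of other transcripts. Long events had 0.133, 0.591 and 0.697 in the same classes. The KO medians of the short classes were 0.105, 0.313 and 0.577. These levels were not tested between classes.

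In the most abundant transcripts the short introns were almost fully spliced or almost fully retained. The 85-base intron of Eef1a1, the elongation factor that brings tRNA to the ribosome, had a PSI of 0.0025 to 0.0038 over the 6 mice. PSI was also low for the short introns of the cyclophilin gene Ppia (0.0016 to 0.0041), the glycolytic gene Aldoa (0.0118 to 0.0148) and the calmodulin gene Calm2 (0.0039 to 0.0071). It was 0.0023 to 0.0049 in the ribosomal protein gene Rps2, 0.0050 to 0.0086 in Rps18, and 0.0104 to 0.0234 in Eef2, the translocation factor of the ribosome. The 86-base intron of Camk2b, a subunit of the synaptic kinase CaMKII, had 0.0355 to 0.0443. Hsp90ab1, a chaperone gene, and Ftl1, the ferritin light chain gene, were the exceptions among the 10 most abundant: their entries of 37 bases with GC-AG ends and of 69 bases had PSI of at least 0.9989 and 0.9973. Those of Dip2a and of Cfb, a complement gene, had a PSI of 1 in every mouse (to 3 decimals), with 40 and 58 bases, and so did the 80-base intron of Ager, a receptor gene, and the 1-base gaps of Abhd1, Acbd4 and Ankzf1. At the other end, PSI was at most 0.0018 in every mouse for the 97-base intron of Dlg4, the gene of the scaffold PSD-95, and at most 0.0007 for the 88-base intron of Apbb1. Myo9b, a myosin gene, held one of the shortest GT-AG entries, and it could be compared: the PSI of its 33 bases was 0.654, 0.554 and 0.560 in WT and 0.559, 0.557 and 0.563 in KO mice.

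None of the 464 short events passed an adjusted p of at most 0.01 with a PSI difference of at least 0.05 between KO and WT (limma on the log2 ratio of retaining to spliced TPM, Benjamini-Hochberg adjusted over 2126 events), and the background over all 2126 events was 0.0%. At an unadjusted p under 0.05 with that difference, 12 short events (2.59%) were found, beside a background of 2.21%: 7 were higher in KO, where the background was 1.55%, and 5 lower, where it was 0.659%. Without the size limit, 13 short events (2.8%) had an unadjusted p under 0.05, beside a background of 2.82%. With the replicate number as a block, 23 short events (4.96%) were found, among them the 12, while the background rose to 4.61%. All KO mice lay above all WT mice, or all below them, in 54 short events (11.6%), beside a background of 10.9%. The mean was higher in KO in 238 short events (51.3%), where the background was 54.4%. The median difference of PSI was 0.0008 over short and 0.0030 over long events, and 90 short events (19.4%) differed by at least 0.05 either way, beside a background of 17.4%. Single libraries moved these counts together with the background. Without WT 1, 25 short events (5.27%) had an unadjusted p under 0.05 with the size limit, beside a background of 4.99%. Without KO 1 there were 6 (1.28%), beside 1.49%, and without KO 3 there were 7 (1.5%), beside 1.56%. The median difference was -0.0059 without WT 1 and -0.0020 without KO 3. Without both mice numbered 1, a comparison chosen after the data were seen, 26 short events (5.41%) were found, beside a background of 6.18%, with 11 higher in KO (background 2.95%) and 15 lower (background 3.22%); 9 of the 26 were among the 12.

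**Figure D3:**
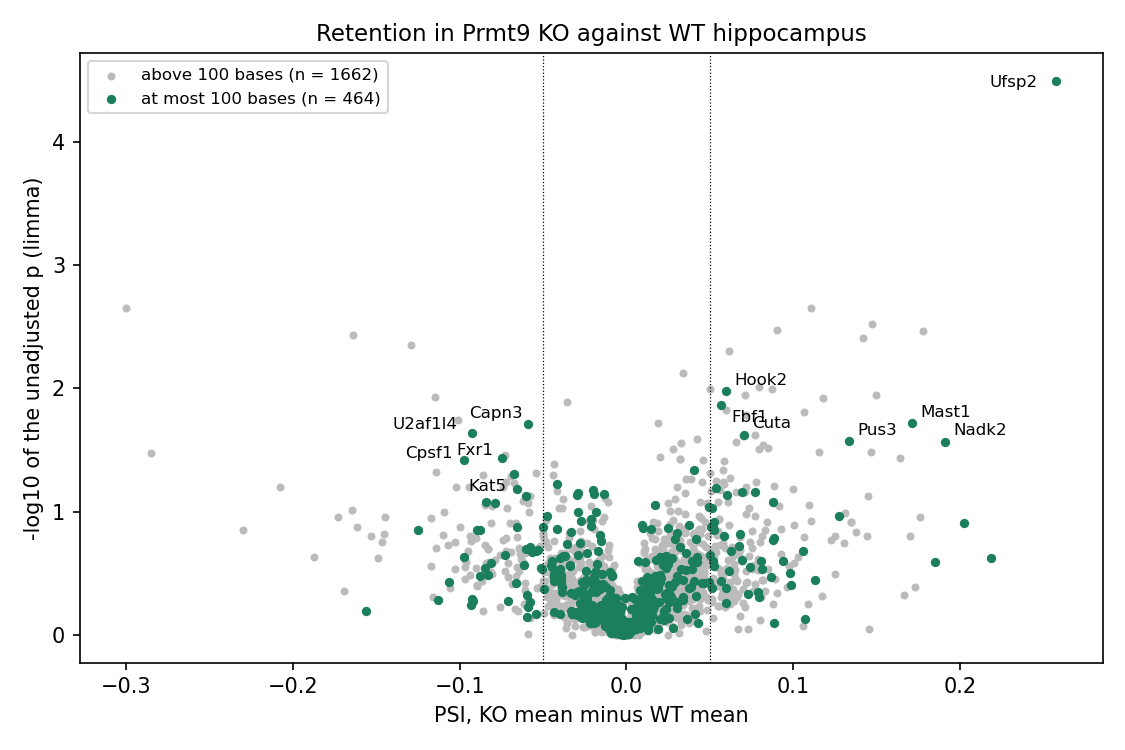
Difference of PSI (KO mean minus WT mean) against -log10 of the unadjusted limma p for 464 short events (green) and 1662 long events (grey), with dotted lines at differences of 0.05 either way. The 12 labelled events have the smallest p of the short events beyond the lines, and Ufsp2 lies alone at a difference of 0.258.

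Ufsp2, which encodes a protease that releases the ubiquitin-like modifier UFM1 from its targets, had the largest difference of all short events and ranked 3 of 2126 by size. PSI of its 80-base intron, shown first above, was 0.216, 0.185 and 0.171 in WT and 0.435, 0.438 and 0.471 in KO mice. Every KO mouse lay above every WT mouse, and the difference of 0.258 was larger than the SD of 0.023 in WT and 0.020 in KO (n = 3). The retaining transcript, annotated as a target of nonsense-mediated decay, was at 14, 7.18 and 6.69 TPM in WT and 26.3, 17.7 and 18.7 TPM in KO, and the spliced transcripts were at 50.8, 31.7 and 32.5 TPM in WT and 34.1, 22.6 and 21 TPM in KO. The retaining TPM of every KO mouse was above that of every WT mouse, whereas the spliced TPM of KO 1 lay within the WT range; both mice numbered 1 had the highest values of their genotype for both forms. The estimated counts behind the retaining form were 1189 to 2593 in WT and 3768 to 4998 in KO. The log2 ratio of retaining to spliced TPM was higher by 1.78 ± 0.17 (SE) in KO (limma, unadjusted p = 3.19e-05, Benjamini-Hochberg adjusted p = 0.0678 over all retained introns; exact permutation test p = 0.1). Between KO and WT mice of the same number the difference of PSI was 0.219, 0.254 and 0.300. Summed over the gene's transcripts, Ufsp2 had a log2 fold change of -0.11 (edgeR, adjusted p = 0.9998).

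The adjusted p of Ufsp2 moved with the setting while its difference of PSI stayed between 0.246 and 0.277 over 21 alternatives. It was 0.0376 with a term for the mice numbered 1, 0.0104 with PSI on a linear scale, 0.226 with the replicate block, and between 0.0248 and 0.719 when 1 mouse was left out (limma, Benjamini-Hochberg adjusted). Without both mice numbered 1 it was 0.00383, and Ufsp2 was then the 1 short event called, beside 1 long event, in Tcea2.

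**Figure D4:**
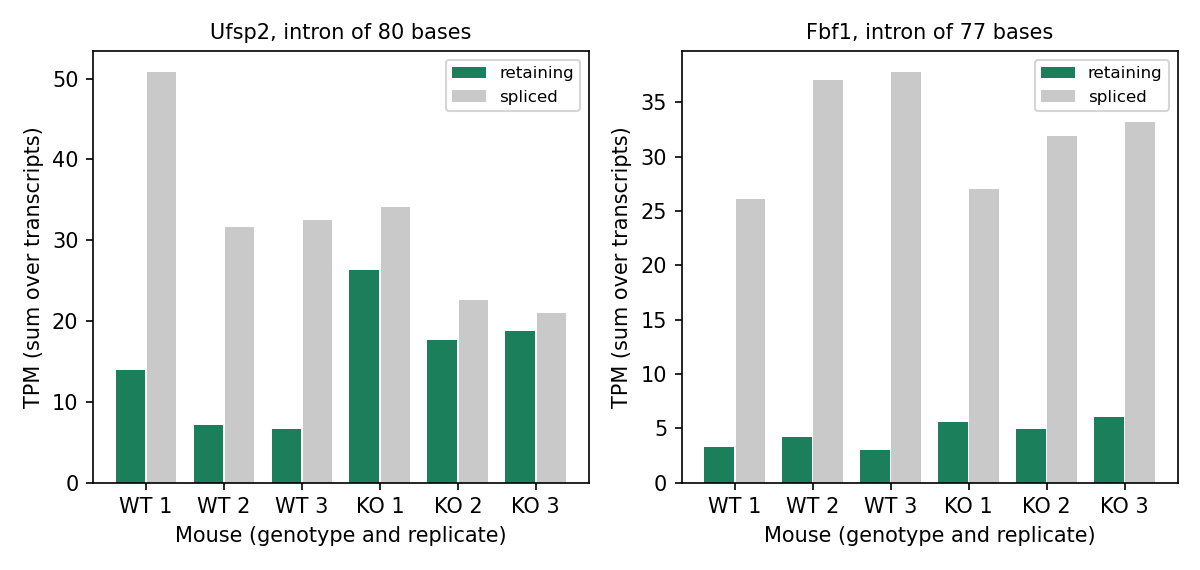
TPM of the retaining (green) and spliced (grey) transcripts of the Ufsp2 and Fbf1 introns in each mouse, on linear axes from 0. For Ufsp2 the spliced form is 50.8 TPM in WT 1 and 21 TPM in KO 3, while the retaining form is 14 and 18.7 TPM; for Fbf1 the retaining form stays between 3.04 and 6.08 TPM.

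Fbf1 encodes a protein of the appendages that anchor the centriole at the base of the cilium. PSI of its 77-base intron was 0.112, 0.101 and 0.074 in WT and 0.170, 0.134 and 0.155 in KO mice. The groups did not overlap, and the difference of 0.057 compared with an SD of 0.019 in WT and 0.018 in KO (n = 3; limma unadjusted p = 0.0137; exact permutation test p = 0.1). On estimated counts in place of TPM the difference was 0.027. The retaining transcript stood at 3.31, 4.16 and 3.04 TPM in WT and 5.54, 4.92 and 6.08 TPM in KO.

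The other events with the smallest unadjusted p were chosen from this contrast and are described, not tested further. Of these, 5 were higher in KO. Hook2, a linker of cargo to microtubules, had a PSI of 0.859, 0.864 and 0.843 in WT and 0.890, 0.927 and 0.928 in KO for its 72-base GC-AG entry, whose retained form is protein coding. Cuta had 0.822, 0.900 and 0.810 against 0.907, 0.913 and 0.923 at its 77-base intron. Pus3, which makes pseudouridine in tRNA, had 0.220, 0.317 and 0.339 against 0.421, 0.402 and 0.455 at 92 bases. In these genes, and in Mast1 and Nadk2, every KO mouse lay above every WT mouse. Mast1, a microtubule-associated kinase of neurons, had 0.196, 0.123 and 0.129 against 0.455, 0.250 and 0.256 at an 88-base intron. The spliced transcript of this Mast1 event has no annotated coding region, and the difference of 0.171 fell to 0.104 without KO 1. The Nadk2 entry is a gap of 1 base between exons, so that retaining and spliced transcripts differ by a single base there; its PSI was 0.249, 0.417 and 0.486 against 0.595, 0.530 and 0.600, and the difference of 0.191 was 0.123 without WT 1.

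Lower in KO were 5 events, 2 of which keep the reading frame. Fxr1, a relative of the fragile X protein FMRP that binds RNA, had a PSI of 0.427, 0.356 and 0.367 in WT and 0.304, 0.295 and 0.327 in KO at 87 bases that leave the frame open. Capn3, a calcium-dependent protease best known from muscle, had 0.190, 0.129 and 0.151 against 0.097, 0.086 and 0.109 at 84 such bases; on estimated counts the difference of -0.059 was -0.103. Kat5, the acetyltransferase Tip60, had 0.379, 0.323 and 0.348 against 0.256, 0.288 and 0.303 at 81 bases. The difference of Kat5 was -0.067, and it was -0.035 on estimated counts and -0.040 without both mice numbered 1, and turned to 0.0053 under a looser rule for events that asks only for the intron and not for the outer exon ends. In these genes, and in U2af1l4 and Cpsf1, every KO mouse lay below every WT mouse. The values of U2af1l4 and Cpsf1 are given with the RNA processing genes.

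**Figure D5:**
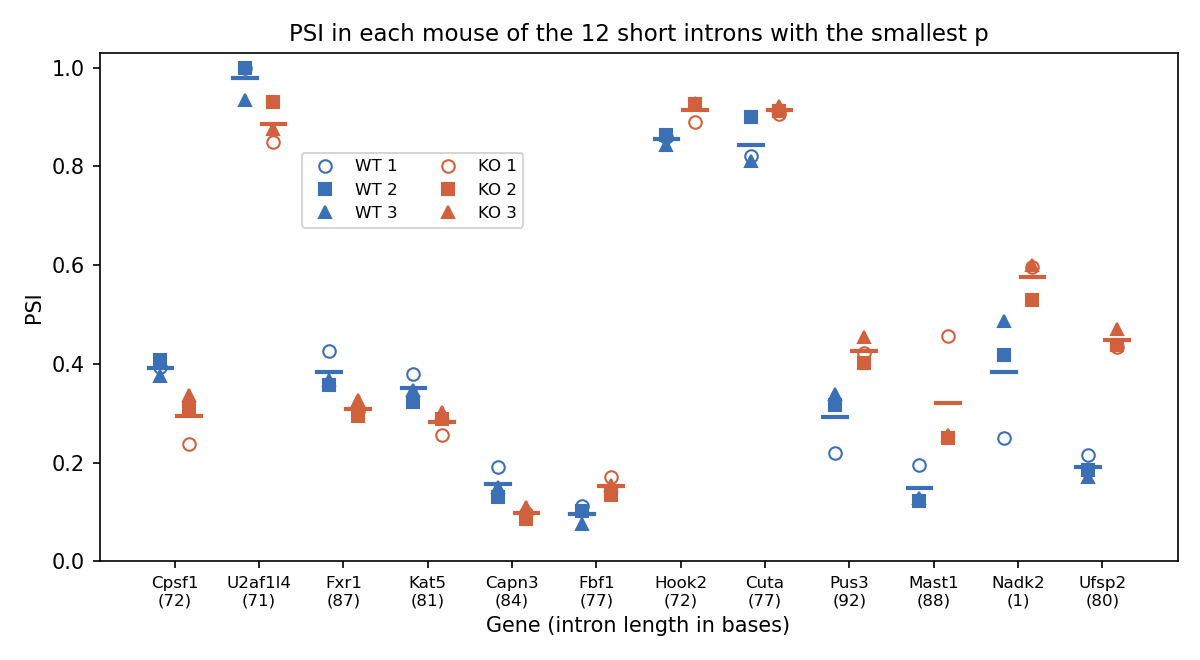
PSI of the 12 short introns with the smallest p among those that differ by at least 0.05, in each WT (blue) and KO (orange) mouse, with mice numbered 1 open and bars at the means; the intron length in bases is under each gene. Ufsp2 has the widest gap, from 0.190 to 0.448 in the means, while the KO mean of Mast1 is set by KO 1 at 0.455.

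Of 56 genes of RNA processing, 6 held 14 of the short events, and 8 events in Cpsf1, Hnrnpk, Ints11 and U2af1l4 could be compared. Their median difference of PSI was 0.0069, against 0.0024 over all 2126 events, with 4 of 8 higher in KO (54.4% over all events). An unadjusted p under 0.05 with a difference of at least 0.05 was found in 2 (2.21% over all events in either direction). Both were lower in KO (0.659% over all events). These 8 events lie in 4 genes, and several share transcripts. U2af1l4, a paralog of the small U2AF subunit that reads the end of the intron, was measured at a 71-base intron whose spliced transcript has no annotated coding region. Its PSI was 1, 1 and 0.935 in WT and 0.850, 0.930 and 0.876 in KO. The spliced form was at 0.68 TPM or less in every mouse. Both forms together averaged 3.71 TPM over the 6 mice, whereas all U2af1l4 transcripts summed to 53.1 to 70.9 TPM per mouse. This PSI therefore covers a small part of the gene's RNA. Under the looser rule for events the difference of -0.093 turned to 0.018. The 72-base intron of Cpsf1 had 0.394, 0.407 and 0.375 against 0.237, 0.309 and 0.338; its difference of -0.098 was -0.011 under the looser rule.

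Cpsf1 also shows that the members are not independent measurements. The transcript that keeps its 66-base intron (PSI 0.244, 0.239 and 0.261 in WT; 0.332, 0.280 and 0.280 in KO) is the spliced form of the 72-base event, and the transcript that keeps the 72-base intron is the spliced form of the 79-base event (0.214, 0.152 and 0.201; 0.305, 0.230 and 0.262). In all, 124 of the 464 short events (26.7%) share a transcript with another. The Cpsf1 introns of 77 and 76 bases had differences of -0.0039 and -0.0003. Hnrnpk, an abundant RNA-binding protein, had a PSI of 0.015, 0.107 and 0.072 in WT and 0.126, 0.136 and 0.140 in KO at the 78-base intron shown above (unadjusted p = 0.0692 by limma), with WT 1 far below the other mice. Ints11, the nuclease of the Integrator complex, had 0.044, 0.119 and 0.119 against 0.097, 0.126 and 0.101 at 74 bases, and there the groups overlapped.

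Of 45 synaptic genes, 2 held 3 short events, in Camk2b and Dlg4, and only 1 had a mean PSI between 0.05 and 0.95. That event is a 30-base gap in the 3′ UTR of Camk2b, with GA and AG at its ends. Its PSI was 0.912, 0.082 and 0.073 in WT and 0.379, 0.102 and 0.118 in KO mice. Both mice numbered 1 stood above the other 4, and the genotypes overlapped.

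The 30 genes of splice site recognition were examined at the level of gene counts, since these proteins sit on the short introns' ends. All 30 were tested, none passed an adjusted p under 0.01 with a fold above 1.5, beside a background of 0.0% over 20278 genes, and DESeq2 called none. Their median log2 fold change was -0.03, beside -0.01 over all genes, and ran from -0.40 in Sf3b6 to 0.21 in Sf3b3; without WT 1 the median was 0.04. Sf3b6 was at 166 TPM in WT 1 and 125 TPM in KO 1, against 75 to 77.7 TPM in the other 4 mice, and its log2 fold change was 0.34 without WT 1 and -0.71 without KO 1. Sf3b2, the gene of the PRMT9 substrate, was the 1 gene of 30 with an unadjusted p under 0.05, beside a background of 1.25% of genes. With the replicate block there were 4, Sf3b2, Sf3b3, Sf3b4 and Rbm10, beside a background of 5.76%, and none was called (edgeR, adjusted p = 0.790 for each). Sf3b2 was at 127, 156 and 160 TPM in WT and 120, 131 and 134 TPM in KO, with overlapping groups and a log2 fold change of -0.28 (edgeR, unadjusted p = 0.0167, adjusted p = 0.9998). Rbm17, which helps a class of short introns to be spliced, was at 75.8, 82.8 and 81.7 TPM in WT and 81.3, 83.6 and 86.5 TPM in KO, and its partner Sap30bp at 37.6, 42.8 and 39.6 against 41.2, 39.4 and 39.1 TPM. The branch-site protein gene Sf1 was at 62.9, 98.1 and 92.6 against 78.3, 103 and 105 TPM, with WT 1 the lowest mouse. U2af2, the large U2AF subunit gene, was at 101.3, 154 and 152 against 130, 144 and 142 TPM.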

How the data were processed

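The authors sequenced polyadenylated RNA with a stranded TruSeq kit, aligned reads with STAR 2.7.1a, and quantified transcripts with kallisto (0.46.0 per the submitters' processing notes). The values deposited by the authors are estimated counts and TPM per transcript for each mouse. TPM carries no depth of its own and is relative to the annotated transcripts, so that reads from unannotated retained introns were assigned to other transcripts or to none. The authors' gene table was not used here.

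Transcripts were matched by ID to GENCODE M21 (GRCm38): of 118783 transcripts, 116438 matched with the same length and were used. Intron sequence was read from the retaining transcript in the GENCODE transcript file. Where the 2 forms summed to 1 TPM or more in each mouse and PSI averaged 0.05 to 0.95, events were tested on log2((retaining + 0.1) / (spliced + 0.1)) with limma 3.58.1 (trended empirical Bayes, both genotypes, no covariate), Benjamini-Hochberg adjusted over all 2126 retained-intron events. On simulated data for this comparison the test found 197 of 200 changed events at a log2 SD of 0.15 and 111 of 200 at an SD of 0.5 (log2 change of 1.5), with 0 false calls. The simulated noise was independent between mice and had the same SD in every event. In the data both mice numbered 1 moved together (below the other 4 in 47.8% of long events). These rates therefore do not give the power or the error of the test on the real data. Gene sums of estimated counts, rounded to whole numbers, were tested with edgeR 4.0.16 (TMM, quasi-likelihood) and DESeq2 1.42.0 in R 4.3.3. Descriptions and figures used Python 3.11.15, pandas 2.3.3 and matplotlib 3.10.9. Permutation tests were exact and two-sided.

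Named events were those of Ufsp2 and Fbf1, the 12 short events with the smallest unadjusted p and a difference of at least 0.05, the 10 most abundant, the 5 highest and 5 lowest in PSI, the 3 shortest with GT-AG ends, and members of the lists. An item under this rule is not reported here. The members, lists and rules were chosen with earlier results of these data known. Mice carry replicate numbers in the labels. The deviations from the genotype means correlated between same-numbered WT and KO mice over events at 0.477, 0.316 and 0.292. WT 2 and KO 3 correlated at 0.331 and WT 3 and KO 2 at 0.295, so these values do not show pairs among the mice numbered 2 and 3. The replicate number was fitted as a block only as an alternative, which is given where it changed a count. Alternatives changed the pseudocount, unit, filters, event rule, length limit, scale, block and single mice; leaving out both mice numbered 1 was added after the data were seen.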

Additional observations from a re-analysis of the deposited data

How the results depend on the processing

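The count of short events with an unadjusted p under 0.05 and a PSI difference of at least 0.05, 12 as reported, was 39 of 1394 under the looser rule for events, 7 of 206 with a limit of 80 bases, 24 of 758 with a limit of 150 bases, 23 with the replicate block, 32 with a term for the mice numbered 1 and 26 of 481 without both of these mice. Over all events the count was 47 of 2126 as reported and under both other length limits. It was 159 of 7442 under the looser rule and 98 of 2126 with the block. With the term it was 123 of 2126, and without both mice numbered 1 it was 138 of 2234. Leaving out 1 mouse gave 6 to 25 short events, with the highest count without WT 1 and the lowest without KO 1. All events gave 109 of 2183 without WT 1 and 32 of 2150 without KO 1. The count of long events, 35 as reported, was 120 of 6048 under the looser rule, 23 of 1368 above 150 bases, 75 with the block, 91 with the term and 112 of 1753 without both mice numbered 1, and 26 to 84 without 1 mouse, with 84 without WT 1. No short event passed the adjusted threshold under any alternative except without both mice numbered 1, where Ufsp2 did, with a PSI difference of 0.277, beside 1 long event. Short events with non-overlapping genotypes, 54 as reported, were 150 under the looser rule and 28 and 99 at limits of 80 and 150 bases. They were 209 of 481 without both mice numbered 1 and 74 to 145 without 1 mouse. Long events, 178 as reported, were 576 under the looser rule, 850 without both mice numbered 1 and 247 to 595 without 1 mouse. Over all events, 232 of 2126 did not overlap as reported and at both other limits, and 726 of 7442 under the looser rule. Without both mice numbered 1 it was 1059 of 2234, and without 1 mouse 324 to 740. With mice left out, fewer mice must be apart.

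The mean over WT mice of the median PSI of short events was 0.159 on estimated counts, 0.186 under the looser rule and 0.350 over the 45 events with 1 transcript on each side that differ in no other intron, and over KO mice it was 0.165, 0.191 and 0.348. For the 193 long events of this kind it was 0.354 in WT and 0.349 in KO. Among the single events, 244 values under alternatives kept their direction and side of the threshold, 1 became stronger (Ufsp2) and 2 turned, U2af1l4 to 0.018 and Kat5 to 0.0053 under the looser rule. The log2 fold change of Prmt9 was -1.71 with DESeq2 as with edgeR but passed the threshold of adjusted p under 0.01 only with DESeq2 (adjusted p = 2.15e-60); without 1 mouse it ran from -1.73 to -1.68. The causes of these moves were not tested, apart from the smaller or larger number of events and mice that the alternatives themselves set. PSI rests on transcript models in which most events differ in more than the intron, and depth limits events whose minor form is under 1 TPM.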

Other observations

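Several short events had large mean differences of PSI that rested on single mice or spread widely, and they are given as values chosen after the data were seen. Scarf2, which encodes a scavenger receptor, had at its 76-base intron the second largest difference of the short events, 0.219, with a PSI of 0.0003, 0.571 and 0.613 in WT and 0.746, 0.550 and 0.544 in KO mice (limma unadjusted p = 0.238), so that WT 1 alone sets the WT mean apart. Aste1 had 0.402, 0.522 and 0.596 in WT and 0.445, 0.853 and 0.829 in KO mice at 92 bases, where KO 2 and KO 3 lay above all WT mice and KO 1 did not. Ndufv1, a subunit gene of respiratory complex I, had 0, 0.495 and 0.629 against 0.463, 0.643 and 0.574 for the pair of transcripts in which its 73-base intron lies in the 5′ UTR. The same intron, measured on another pair of outer exon ends in its coding transcripts, had a PSI of 0.029 to 0.036 over the 6 mice.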
